A study of Mus musculus with 6 samples.

Results

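Rab GTPases are the largest branch of the Ras superfamily. Each Rab switches between a GDP-bound form held in the cytosol and a GTP-bound form on a particular membrane, where it recruits the motors, tethers and kinases that move and fuse vesicles. In macrophages they direct secretion from the Golgi, the uptake and recycling of receptors, and the ripening of phagosomes into degradative compartments, with Rab5 proteins on early and Rab7 on late phagosomes. Guanine nucleotide exchange factors load Rabs with GTP, GTPase-activating proteins switch them off, and GDP dissociation inhibitors carry them between membranes.

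The Rab genes described here are all rows of the gene count table that are annotated as protein coding and whose symbol is Rab followed by a number and, at most, a letter and a digit. That rule gave 59 genes of the 48709 in the table, spread over 18 chromosomes, and it used no measured value. RNA was sequenced from peritoneal macrophages of untreated C57BL/6 mice 6 to 8 weeks old, sorted as F4/80+ CD11b+ cells after lavage. There were 3 libraries from wild-type mice and 3 from mice heterozygous for Zeb1, written Zeb1 (+/-), which carry 1 intact copy of the gene for the transcription factor ZEB1, and each library pooled 2 mice. How the Zeb1 allele was made is not given in the sources used here, and nothing says that replicates with the same number are related. A p-value therefore measures the spread between pooled libraries and not between single mice.

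Totals ran from 17859872 to 42165006 counts per library, and levels are in CPM, counts scaled to the size of the library after TMM normalisation, where 1 CPM stood for 17.9 to 42.3 counts. The wild-type libraries had 5.44, 7.56 and 7.22 CPM of Zeb1 itself and the Zeb1 (+/-) libraries 3.85, 3.45 and 3.62 CPM, in the order of replicates 1, 2 and 3 that is used for all values (edgeR adjusted p = 0.0522, with groups that did not overlap). All 9 macrophage markers examined were present, and their summed level, most of it from Lyz2, was 45680 to 63850 CPM in wild-type and 46960 to 63280 CPM in Zeb1 (+/-). None passed the test, but the groups did not overlap for 4 of the 9, beside 19.9% of all tested genes. Adgre1, which encodes the sort marker F4/80, was at 2159 to 2230 CPM in wild-type and 2604 to 2646 CPM in Zeb1 (+/-) (adjusted p = 0.111). Gata6 and Icam2, markers of resident peritoneal macrophages, also had higher values in Zeb1 (+/-) (adjusted p = 0.115 and 0.163), and Csf1r had lower values (0.346). The part of these differences in the Rab values was not tested. The 14 B cell markers summed to 154 to 311 CPM in wild-type, highest in replicate 3, and to 94.6 to 127 CPM in Zeb1 (+/-). Eosinophil markers were at 1.08 to 1.91 and 2.35 to 2.84 CPM, with Prg2 and Epx at 0. Sums for T and NK cell, mast cell, neutrophil, dendritic cell, mesothelial and platelet lists overlapped between genotypes. In wild-type replicates 1 and 2 small structural RNAs were at 4.14 and 8.69 CPM, against 42.2 to 45.5 CPM in the other 4 libraries.

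None of the Rab genes passed the test between genotypes, and most were bounded closely. Of the 59 genes, 46 had enough counts to be tested, and 0 were higher or lower at an adjusted p under 0.05 by the edgeR quasi-likelihood test, where 0.587% of the 12940 tested genes were called. At an unadjusted p under 0.05 there were 5 (2 higher, 3 lower in Zeb1 (+/-)), a share of 10.9% against 14.6% of all tested genes. The groups did not overlap for 6 of the 46 (13.0%), against 19.9% of all tested genes. DESeq2 called 0 of the 44 to which it gave an adjusted p, against 2.66% of all genes. At an unadjusted p under 0.05 it had 3 of 54 (5.56%), against 7.19% of 21098 genes. Both sets include genes with too few counts for the edgeR test. The 95% confidence interval of the change lay inside 1.5-fold in either direction for 40 of 46 Rab genes, and for 72.6% of all tested genes. The other 6 were Rab33a, Rab34, Rab38, Rab40b, Rab44 and Rab4a, all below 15 CPM in every library. All log2 fold changes are of Zeb1 (+/-) relative to wild-type. Their median was 0.023 over the 46 genes and -0.0004 over all tested genes, with 25 Rab genes above 0 and 21 below.

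**Figure D1:**
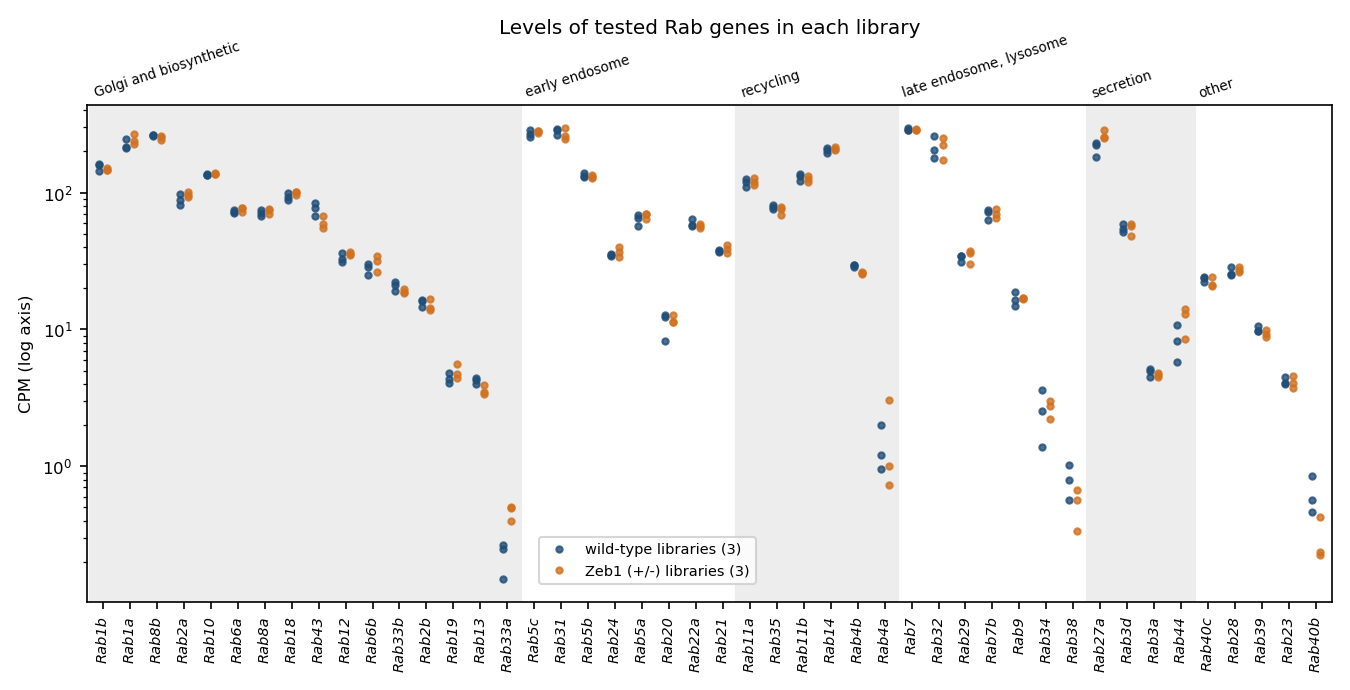
Level of each of the 46 tested Rab genes in CPM on a log axis, with 1 point per library (3 wild-type, 3 Zeb1 (+/-)), ordered within roles by level per kilobase. The points of both genotypes lie on top of each other for most genes, and the levels run from 0.15 CPM (Rab33a) to nearly 300 CPM (Rab7, Rab5c, Rab31).

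Rab transcripts made up 0.364% to 0.382% of all counts in each library, and their summed level was 3812, 3696 and 3613 CPM in wild-type and 3625, 3805 and 3868 CPM in Zeb1 (+/-). Levels of different genes were compared per kilobase of annotated exon. On that scale Rab5c was highest at 125 CPM per kilobase over the 6 libraries, followed by Rab7 at 111 and Rab32 at 91.5. Rab31, Rab1b, Rab1a and Rab27a followed at 71.7, 66.6, 61.5 and 61.3, then Rab8b, Rab2a and Rab11a at 54.4, 43.4 and 39.8. These 10 genes held 65.7% of the summed CPM per kilobase of the family, and they were the same 10 when the longest transcript was used as the length. The order depended on the length used, and Rab14 moved from rank 19 to rank 12 with the longest transcript. They include Rabs of the endoplasmic reticulum and Golgi (Rab1a, Rab1b, Rab2a), of early (Rab5c) and late endosomes (Rab7), and of secretory and lysosome-related organelles (Rab27a, Rab32).

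At the other end, 13 genes did not have enough counts to be tested. Rab17, Rab27b, Rab39b, Rab3c and Rab9b had 0 counts in all 6 libraries, which with 3 counts as the limit allows a level of up to 0.0709 to 0.167 CPM depending on the library. Rab15, Rab25, Rab26, Rab3b, Rab30, Rab36, Rab37 and Rab42 had 1 to 35 counts in all, and no more than 0.637 CPM in any library. Several of these are known from other tissues: Rab3c from neurons, Rab17 and Rab25 from epithelia, and Rab27b from platelets and mast cells. In a bulk sample a few counts may come from a few cells or from a low level in many, and these cannot be told apart.

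Many Rabs exist as close relatives that share a number, and 14 such families were present in the table. In most of them a single relative held most of the transcripts. Rab27a and its relative Rab27b were at 100% and 0% of their family's CPM per kilobase, as were Rab9 against Rab9b and Rab39 against Rab39b. Rab4b held 95% ± 1.97 of the Rab4 family in wild-type and 93.7% ± 4.62 in Zeb1 (+/-) (SD, n = 3 each). Rab2a held 91.6% ± 1.15 and 92.6% ± 0.989 of the Rab2 family, and Rab7 held 88.0% ± 1.10 and 88.0% ± 0.726 beside Rab7b. Within the Rab5 family, which fuses early endosomes, Rab5c held 73.7% ± 1.42 and 74.3% ± 0.456, Rab5b 19.1% ± 1.16 and 18.2% ± 0.696, and Rab5a 7.27% ± 0.842 and 7.48% ± 0.273.

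Rab8b exceeded Rab8a, with 78.6% ± 0.745 and 77.3% ± 0.493 of that family, and Rab6a exceeded Rab6b with 77.8% ± 1.95 and 76.8% ± 2.99. The Rab11 and Rab1 families were more evenly divided. Rab11a held 65.1% ± 2.65 and 66.1% ± 1.80 beside Rab11b, and Rab1b held 53.7% ± 1.94 and 50.4% ± 1.61 beside Rab1a. All family shares depend on the exon length used. By longest transcript Rab1a, at 82.6 CPM per kilobase over all libraries, exceeded Rab1b at 79.1. Among the Rab3 genes, Rab3d held 85.5% ± 0.965 and 86.1% ± 1.58 and Rab3a most of the rest. The shares differed most between genotypes in the Rab33 family, where Rab33a held 2.34%, 3.45% and 3.54% in the wild-type libraries and 7.19%, 7.57% and 6.08% in the Zeb1 (+/-) libraries. These shares were not tested, and Rab33a had only 5 to 21 counts in a library.

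**Figure D2:**
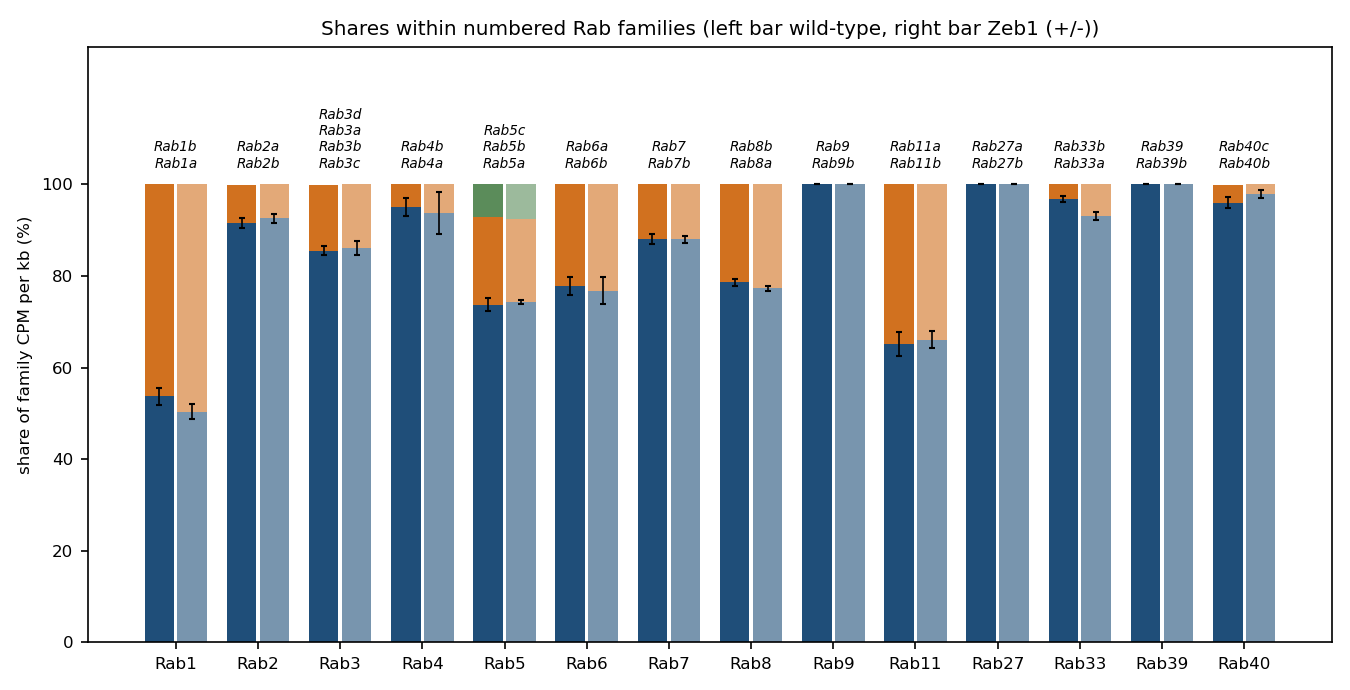
Share of CPM per kilobase held by each gene of the 14 numbered Rab families, as the mean of 3 wild-type libraries (left bar, full colour) and 3 Zeb1 (+/-) libraries (right bar, pale). The first gene named above each pair is the bottom segment, later genes stack above it, and error bars are the SD of that bottom share; Rab27, Rab9 and Rab39 transcripts came from a single relative.

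The first role is traffic in the early secretory pathway and through the Golgi, to which 18 Rab genes were assigned and of which 16 were tested. None passed, and their median log2 fold change was 0.051. Rab1a, which acts between the endoplasmic reticulum and the Golgi, was at 244, 214 and 212 CPM in wild-type and 225, 240 and 266 CPM in Zeb1 (+/-). The ranges overlapped, and the log2 fold change was 0.13 ± 0.08 (SE; 95% confidence interval -0.07 to 0.32). Its relative Rab1b was at 158, 161.5 and 145 CPM against 146, 147 and 151.5 CPM (log2 fold change -0.064 ± 0.065, interval -0.21 to 0.08). Rab10, which carries Golgi-derived vesicles to the plasma membrane, had the smallest spread of all Rab genes. It was at 136, 134 and 134 CPM in wild-type and 136, 137 and 138.5 CPM in Zeb1 (+/-), a coefficient of variation of 1.34% over the 6 libraries. Rab8b, a relative with a similar role, was at 261 to 265 CPM in wild-type and 241 to 261 CPM in Zeb1 (+/-).

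Rab43, which has been linked to Golgi structure and antigen cross-presentation, had the smallest p of all 46 genes. It was at 67.5, 83.6 and 76.6 CPM in wild-type and 58.7, 55.5 and 67.0 CPM in Zeb1 (+/-). Every Zeb1 (+/-) value was below every wild-type value, though wild-type replicate 1 and Zeb1 (+/-) replicate 3 were less than 1 CPM apart. Its log2 fold change was -0.33 ± 0.10 (SE; interval -0.55 to -0.11; edgeR adjusted p = 0.184), and adjusted p ran from 0.0501 to 0.592 over the other fits. The gene lies at chr6:87788853-87812164 on the minus strand of GRCm38. It overlaps the protein-coding gene model Gm45140 on the same strand, and 74.5% of the 50-base stretches of its transcripts also occur in other genes, mainly in Gm45140. That model was at 34.7, 19.2 and 14.3 CPM in wild-type and 30.2, 24.4 and 24.9 CPM in Zeb1 (+/-). Among wild-type libraries it was highest in replicate 1, where Rab43 was lowest. Among Zeb1 (+/-) libraries it was also highest in replicate 1, while Rab43 was lowest in replicate 2. The part of shared reads in the Rab43 values was not tested. With the counts of both summed, a choice made after the data were seen, the levels were 102, 102.9 and 90.9 CPM against 88.9, 79.9 and 91.9 CPM. The groups then overlapped, and the log2 fold change was -0.19 ± 0.08 (interval -0.36 to -0.01; adjusted p = 0.324).

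Other Golgi-linked genes were lower in level or closer to no change. Rab33a, a Golgi and vesicle Rab known from brain and lymphocytes, had 0.15, 0.25 and 0.27 CPM in wild-type and 0.50, 0.50 and 0.40 CPM in Zeb1 (+/-). All 3 Zeb1 (+/-) values were above the wild-type ones, but they rest on 5, 7 and 5 counts against 9, 21 and 13. The log2 fold change was 1.10 ± 0.39 (interval 0.22 to 1.97; adjusted p = 0.253). Its relative Rab33b, which also binds the autophagy protein Atg16l1, was at 19.2, 21.2 and 22.1 CPM against 19.8, 18.5 and 18.7 CPM (log2 fold change -0.13). Rab13, known from junctional and recycling traffic, was at 4.42, 4.01 and 4.25 CPM against 3.52, 3.90 and 3.38 CPM. Its groups did not overlap, and its log2 fold change was -0.23 ± 0.14 (edgeR adjusted p = 0.492). Rab6b, a retrograde Golgi Rab, was at 25.1, 28.8 and 30.2 CPM against 34.6, 31.7 and 26.2 CPM (log2 fold change 0.14), and Rab19 was at 4.33, 4.08 and 4.78 CPM against 5.58, 4.39 and 4.75 CPM (0.15). In this role Rab2a, Rab2b, Rab6a, Rab8a, Rab8b, Rab10, Rab12 and Rab18 all had log2 fold changes between -0.081 and 0.11. Of the 50-base stretches of Rab2b, Rab33b and Rab6a, 57%, 21.2% and 19% also occur in other genes, mainly Gm43766, Gm38160 and Mrpl48. Gm43766 and Gm38160 had 1 count each over all libraries together. Rab2b also overlaps Tox4 on the opposite strand, with 14135 counts against 2636 for Rab2b, and Rab6a overlaps Mrpl48.

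Rab18, which acts at the endoplasmic reticulum and on lipid droplets, is the Rab gene nearest to Zeb1. It lies 0.958 Mb from that gene on chromosome 18, at chr18:6733905-6794429 on the plus strand. Rab18 was at 92.2, 87.6 and 98.5 CPM in wild-type and 96.1 to 101.0 CPM in Zeb1 (+/-). The ranges overlapped and the log2 fold change was 0.10 ± 0.07 (interval -0.05 to 0.24). The only other Rab gene on that chromosome, Rab27b, is 64.2 Mb away and had 0 counts.

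Early endosome Rabs receive newly internalised cargo, and 8 of 9 assigned genes were tested. None passed. In wild-type they summed to 889 ± 25.9 CPM, and in Zeb1 (+/-) to 889 ± 29.95 CPM (SD, n = 3 each). Rab5c was at 287, 267.5 and 253 CPM in wild-type and 273, 279 and 284 CPM in Zeb1 (+/-), with a log2 fold change of 0.051 ± 0.067 (interval -0.10 to 0.20). The Zeb1 (+/-) values lay inside the wild-type range. Rab31, also called Rab22b, which sorts cargo between the Golgi and endosomes, was at 285, 291.5 and 263 CPM against 248, 259.7 and 294 CPM (log2 fold change -0.068, interval -0.25 to 0.11). Rab20, a phagosomal Rab induced by interferon gamma, was at 8.29, 12.8 and 12.3 CPM against 11.3, 12.7 and 11.2 CPM, with wild-type replicate 1 the lowest of the 6. The log2 fold changes of Rab5a, Rab5b, Rab21, Rab22a and Rab24 lay between -0.067 and 0.087. For Rab24, an atypical Rab linked to autophagy, 49.6% of the 50-base stretches also occur in other genes, mainly Prelid1 on the opposite strand. The share for Rab20 was 22.9%, mainly E230013L22Rik on the opposite strand.

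Recycling Rabs return receptors to the cell surface, Rab4 and Rab35 by a fast route and Rab11 by a slower one. Of 8 assigned genes 6 were tested and 0 passed. Rab11a was at 126, 109.5 and 119 CPM in wild-type and 114, 127 and 119.6 CPM in Zeb1 (+/-) (log2 fold change 0.024, interval -0.14 to 0.19). Rab35 was at 81.5, 78.8 and 76.3 CPM against 69.1, 75.3 and 79.1 CPM (log2 fold change -0.082, interval -0.24 to 0.08). Both sets of ranges overlapped. Rab14, which moves between the Golgi, endosomes and phagosomes, kept to 195 to 214 CPM in all libraries.

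Rab4b gave the tightest separation of the groups. It was at 29.8, 28.5 and 29.7 CPM in wild-type and 25.3, 26.3 and 26.0 CPM in Zeb1 (+/-), a mean of 29.3 ± 0.687 against 25.85 ± 0.501 CPM (SD, n = 3 each). The groups did not overlap. The fold change was small, -0.18 ± 0.06 on the log2 scale (SE; interval -0.32 to -0.04), and it did not pass (edgeR adjusted p = 0.246). Of the 50-base stretches of Rab4b, 58.1% also occur in other genes, mainly in the overlapping model Gm21983, to which 0 counts were assigned in any library. Rab4a was far lower, at 1.2, 1.99 and 0.956 CPM against 0.726, 3.07 and 1.00 CPM. Its highest value, in Zeb1 (+/-) replicate 2, rests on 130 counts where the other libraries had 13 to 56. The log2 fold change of Rab4a ran from -0.65 to 0.63 when single libraries were left out, and it was -0.65 without Zeb1 (+/-) replicate 2.

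Late endosome and lysosome Rabs include Rab7, which drives fusion with lysosomes, and Rab32 and Rab38, which serve lysosome-related organelles. Of 8 assigned genes 7 were tested and 0 passed, and their summed level was 627 CPM in both genotypes (SD 40.5 and 41.4). Rab7 was at 297, 288 and 284 CPM in wild-type and 284, 288 and 292 CPM in Zeb1 (+/-), a log2 fold change of -0.0074 ± 0.058 (SE; interval -0.14 to 0.12). The coefficient of variation over the 6 libraries was 1.67%. Of its 50-base stretches 12.7% also occur in other genes, mainly the pseudogene Rab7-ps1.

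Rab32, which also restricts intracellular bacteria in macrophages, varied more than any other Rab gene above 100 CPM. It was at 258, 204 and 179 CPM in wild-type and 173, 222 and 249 CPM in Zeb1 (+/-), a coefficient of variation of 16.4%. The spread lay within the groups, the means being 214 ± 40.1 and 214.5 ± 38.5 CPM (SD, n = 3 each). The lowest values were in wild-type replicate 3 and Zeb1 (+/-) replicate 1, which also had the smallest totals, 18574049 and 17859872 counts. The library with the largest total, Zeb1 (+/-) replicate 2, was below wild-type replicate 1 and Zeb1 (+/-) replicate 3. The part of depth in this spread was not tested. The log2 fold change of Rab32, 0.0062, had a wider interval than other abundant Rabs, -0.34 to 0.35. The relative Rab38 was at 0.571, 1.03 and 0.797 CPM against 0.335, 0.567 and 0.670 CPM (log2 fold change -0.53, interval -1.32 to 0.26). Rab7b, Rab9 and Rab29 had log2 fold changes between -0.0079 and 0.043. Rab34, at 1.38 to 3.59 CPM over the 6 libraries, had 0.045 with a wide interval, -0.63 to 0.72. Rab29, a partner of the kinase LRRK2, lies 152 kb from Rab7b on chromosome 1, and neither passed.

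Regulated secretion was the role with the largest difference in summed level, 281 ± 29.6 CPM for wild-type against 334.5 ± 24.3 CPM for Zeb1 (+/-) (SD, n = 3 each), most of it from a single gene. Only 4 of its 9 genes were tested, and none passed. Rab27a docks secretory lysosomes and multivesicular bodies at the plasma membrane and serves exosome release. It was at 231.5, 224 and 181 CPM in wild-type and 250.3, 285 and 254 CPM in Zeb1 (+/-), a mean of 212 ± 27.0 against 263 ± 18.8 CPM (SD, n = 3 each). All 3 Zeb1 (+/-) libraries were above all 3 wild-type libraries, and wild-type replicate 3 was the lowest. On the log2 scale the change was 0.31 ± 0.10 (SE; interval 0.09 to 0.53; edgeR adjusted p = 0.210).

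The change in Rab27a moved with the fit. It was 0.21 without wild-type replicate 3. A fit that set apart wild-type replicates 1 and 2, the 2 libraries with low structural RNA, gave 0.54. That fit compares wild-type replicate 3 alone with the 3 Zeb1 (+/-) libraries. The change was 0.053 once the B cell marker mean was added as a covariate. That mean was highest in wild-type replicate 3, the library with the lowest Rab27a. On the log2 CPM scale it was 2.47 to 3.46 in wild-type and 1.8 to 2.11 in Zeb1 (+/-). It thus separates the genotypes, and the fit cannot tell its part from that of genotype. Without a filter on low counts the adjusted p was 0.042, and over all other fits it ran from 0.0718 to 0.889. Rab27a lies at chr9:73044854-73097629 on the plus strand of GRCm38, and 3.59% of its 50-base stretches occur in other genes.

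Rab44, a large Rab with EF hands known from mast cell granules and osteoclasts, was at 5.77, 10.7 and 8.23 CPM in wild-type and 13.0, 14.1 and 8.56 CPM in Zeb1 (+/-). Zeb1 (+/-) replicate 3 lay inside the wild-type range. The log2 fold change was 0.53 ± 0.24 (SE; interval -0.01 to 1.07; adjusted p = 0.347), with 0.32 without wild-type replicate 1 and 0.78 without wild-type replicate 2. Without a low-count filter the adjusted p was 0.0497, and over all other fits it ran from 0.168 to 0.748. The 8 mast cell and basophil markers summed to 1.65, 2.34 and 3.88 CPM in wild-type and 1.68, 3.26 and 2.25 CPM in Zeb1 (+/-), with Mcpt8 at 0. Their part in the Rab44 values was not tested. Rab3d, a Rab of secretory granules, was at 54.2, 59.3 and 51.6 CPM against 48.5, 58.5 and 57.2 CPM (log2 fold change -0.0051, interval -0.20 to 0.19). Rab3a was at 4.48 to 5.11 CPM in all libraries.

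**Figure D3:**
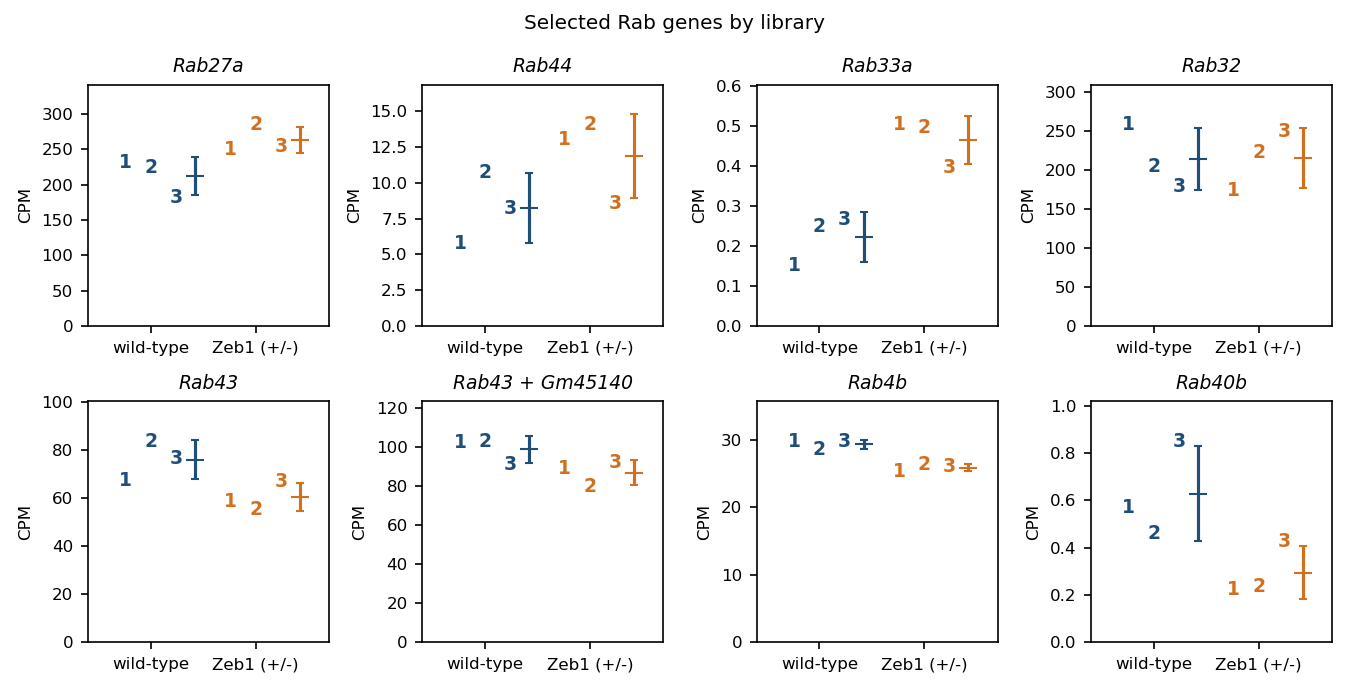
Level in CPM of 8 quantities in each library, the digits giving the replicate number and the bars the mean and SD of 3 libraries. Rab27a, Rab33a, Rab43, Rab4b and Rab40b have groups that do not overlap, Rab44 and Rab32 overlap, and Rab43 overlaps once the counts of Gm45140 are added.

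The last group holds Rabs of the cilium and little-studied Rabs. Of 7 genes 5 were tested and 0 passed. Rab40c, which like Rab40b carries a SOCS box that recruits a ubiquitin ligase, was at 22.1, 24 and 23.9 CPM in wild-type and 24.3, 20.9 and 21.1 CPM in Zeb1 (+/-) (log2 fold change -0.082, interval -0.27 to 0.11). Rab28, a ciliary Rab, was at 28.45, 24.85 and 25.55 CPM against 26.1, 28.5 and 27.2 CPM (log2 fold change 0.054, interval -0.12 to 0.23). Both pairs of ranges overlapped. Rab40b was at 0.571, 0.462 and 0.850 CPM against 0.223, 0.236 and 0.426 CPM, with groups that did not overlap. Its log2 fold change of -1.01 ± 0.40 (interval -1.92 to -0.10; adjusted p = 0.304) rests on 4 to 19 counts in a library. Rab23, an inhibitor of Hedgehog signalling, and Rab39 had log2 fold changes of -0.035 and -0.11.

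**Figure D4:**
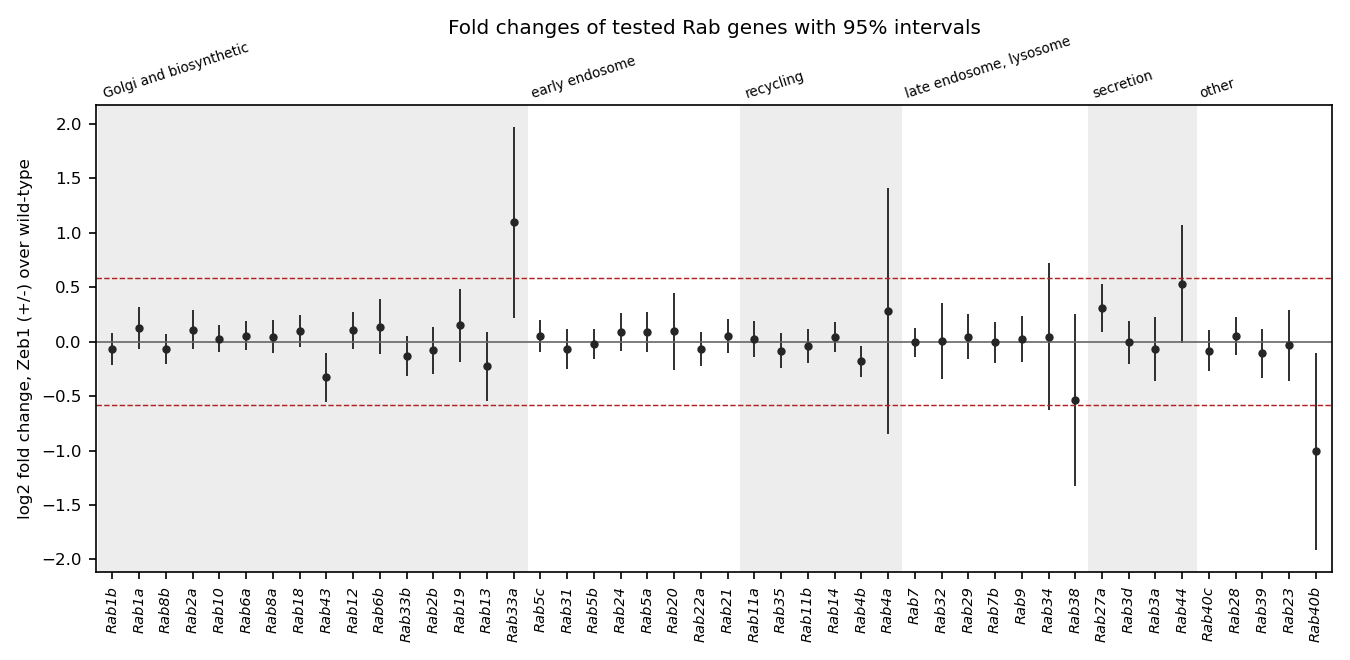
Log2 fold change of each tested Rab gene, Zeb1 (+/-) over wild-type, with its 95% confidence interval from the edgeR fit, ordered as in the plot of levels. The dashed lines mark 1.5-fold in either direction; 40 of the 46 intervals lie between them, and the 6 that cross belong to genes below 15 CPM.

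The spread between libraries bounds what could be seen. Over the 6 libraries the median coefficient of variation was 7.16% for the 46 Rab genes and 9.80% for all tested genes. Among genes with a mean of at least 10 CPM it was 6.71% for 36 Rab genes and 7.53% for 8328 genes in all. In that class 35 of 36 Rab genes (97.2%) had intervals inside 1.5-fold, as did 94.5% of all genes, and log2 fold changes ran from -0.33 (Rab43) to 0.53 (Rab44). A coefficient of variation above 20% was seen for 6 Rab genes.

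ZEB1 binds E-box sequences, of which CACCTG, which reads as CAGGTG on the opposite strand, is a known form. RefSeq promoter windows on GRCm38.p6, from 250 bases before to 50 after an annotated start, were matched by symbol for 48 of the 59 Rab genes (60 windows). Of these windows 10 held CACCTG on either strand (16.7%), against 20.2% of all 32851 windows. Among the 40 tested Rab genes with a window, 7 held the motif. Their log2 fold changes ran from -0.069 to 0.31 with a median of 0.022, and the median of the 33 without it was 0.0062. Holding these letters is a description of the window and not evidence of binding. The gene with the largest change among the 7 was Rab27a, whose 250 bases before its first RefSeq start (chr9:73044560-73044809, plus strand) are shown with the motif in capitals, 50 bases before the start:
Rab27a: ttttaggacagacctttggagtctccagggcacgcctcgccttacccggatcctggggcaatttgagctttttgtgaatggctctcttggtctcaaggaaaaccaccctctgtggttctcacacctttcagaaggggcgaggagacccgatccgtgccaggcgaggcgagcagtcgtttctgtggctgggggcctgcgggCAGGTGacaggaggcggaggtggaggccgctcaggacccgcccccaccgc

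The other 6 genes had smaller changes around the same letters, so stretches of 30 bases centred on the motif are given, 5′ to 3′ on the strand of the gene, to set beside the Rab27a window. Rab23 had a pair of matches, of which the one nearer the start is shown.
Rab5c: ctttctgtcagtCACCTGggaatatagaga
Rab22a: gggcggggaggtCAGGTGacccagctggcg
Rab9: ttagaagaaacgCAGGTGggaagaccagag
Rab3a: cccttaacctggCACCTGgggcccgggctc
Rab19: tggccagcacctCACCTGgggcttcaggct
Rab23: gcatgcgcagacCAGGTGgcgcatgctcct
These stretches lie at chr11:100738224-100738253 (Rab5c, minus strand), chr2:173659832-173659861 (Rab22a, plus), chrX:166480048-166480077 (Rab9, minus), chr8:70755006-70755035 (Rab3a, plus), chr6:39381286-39381315 (Rab19, plus) and chr1:33719865-33719894 (Rab23, plus). The log2 fold changes of these genes were 0.051, -0.067, 0.022, -0.069, 0.15 and -0.035, in the order of the sequences. The windows of Rab43, Rab4b, Rab33a, Rab13 and Rab40b, whose groups did not overlap, held no match, which says only that these letters are not in those windows.

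Regulators and partners of the Rabs were examined from lists of 149 genes in the table, of which 137 were tested. None passed at an adjusted p under 0.05 by the edgeR test. At an unadjusted p under 0.05 there were 22 (16.1%, beside 14.6% of all tested genes), 4 higher and 18 lower in Zeb1 (+/-). All tested genes were not split by direction at that threshold, so these directions, here and by list below, have no background beside them. At an adjusted p under 0.05, 20 of all tested genes were higher and 56 lower. The groups did not overlap for 22 genes (16.1%, beside 19.9%), and the median log2 fold change was -0.064. DESeq2 called 5 of the 136 genes to which it gave an adjusted p, Evi5 and Ppm1h higher and Rilpl2, Rab11fip1 and Tbc1d9 lower, where it called 2.66% of all genes. At an unadjusted p under 0.05 it had 19 of 146, beside 7.19% of 21098 genes. Those 21098 include genes with too few counts for the edgeR test, which kept 137 of the 149 listed genes and 12940 in all. These shares thus rest on sets that were not matched for level.

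Of 43 tested effectors 1 was higher and 7 were lower at an unadjusted p under 0.05, which 14.6% of all tested genes met. Rilpl2, which binds Rab8 and Rab10 once they are phosphorylated by LRRK2, had the smallest p of all 137. It was at 84.7, 82.6 and 95.1 CPM in wild-type and 55.0, 64.7 and 69.2 CPM in Zeb1 (+/-), so that the groups stood apart. The log2 fold change was -0.47 ± 0.09 (SE; interval -0.68 to -0.26; edgeR adjusted p = 0.0742), and other fits gave adjusted p from 0.00144 to 0.362. It passed by DESeq2 (adjusted p = 0.00154), without a filter (0.00144) and without Zeb1 (+/-) replicate 3 (0.0474). Rab11fip1, an adaptor of Rab11, was at 21.2, 25.5 and 20.8 CPM against 17.75, 16.7 and 15.2 CPM (log2 fold change -0.45, adjusted p = 0.0988).

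Of 33 tested GTPase-activating proteins 1 was higher and 5 were lower at an unadjusted p under 0.05, which 14.6% of all tested genes met. Evi5, which acts on Rab11, was at 356, 370.5 and 347 CPM in wild-type and 496.5, 508 and 417 CPM in Zeb1 (+/-). All Zeb1 (+/-) values were higher, with a log2 fold change of 0.40 ± 0.08 (SE; interval 0.21 to 0.60; edgeR adjusted p = 0.0828). It passed by DESeq2 (adjusted p = 0.000579), without a filter (0.00239) and without Zeb1 (+/-) replicate 3 (0.0287), and the adjusted p reached 0.324 over the other fits. Of 42 tested exchange factors 1 was higher and 5 were lower at an unadjusted p under 0.05, beside the same 14.6%. The smallest p was that of Als2cl, at 8.02, 8.80 and 8.23 CPM against 7.26, 6.31 and 5.33 CPM (log2 fold change -0.42, edgeR adjusted p = 0.209).

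The LRRK kinases phosphorylate Rabs and the phosphatase PPM1H reverses this. Of 4 tested LRRK kinases and Rab phosphatases 1 was higher and 1 was lower at an unadjusted p under 0.05, beside 14.6% of all tested genes. Ppm1h was at 109.5, 113.5 and 102 CPM in wild-type and 137, 122 and 136 CPM in Zeb1 (+/-), with groups that did not overlap. Its log2 fold change was 0.28 ± 0.07 (SE; interval 0.12 to 0.45; adjusted p = 0.134), and over the other fits the adjusted p ran from 0.0336 (DESeq2) to 0.576, passing also without a filter (0.0399). Adding the B cell mean, which separates the genotypes, to the fit gave a log2 fold change of 0.16. Ppm1m, on the same list, went the other way, at 33.4, 34.8 and 32.9 CPM against 29.2, 30.2 and 30.6 CPM. Its groups did not overlap either (log2 fold change -0.17, edgeR adjusted p = 0.281). Lrrk2 was at 66.6, 80.0 and 77.5 CPM against 108, 87.5 and 75.35 CPM and overlapped.

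Of the 9 genes for escort, prenylation and extraction of Rabs, 0 had an unadjusted p under 0.05. Gdi2, the main GDP dissociation inhibitor of non-neuronal cells, was at 322 to 367 CPM in wild-type and 337 to 378 CPM in Zeb1 (+/-). Arl6ip5, a prenylated Rab acceptor family protein, had the smallest p of that list, at 74.2, 72.3 and 80.25 CPM against 83.3, 85.4 and 80.1 CPM (log2 fold change 0.14, adjusted p = 0.376). Of 6 tested Rab-like genes none had an unadjusted p under 0.05, and the smallest was that of Rabl2, at 7, 5.57 and 5.05 CPM against 4.91, 4.84 and 5.97 CPM (log2 fold change -0.17, adjusted p = 0.664).

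**Figure D5:**
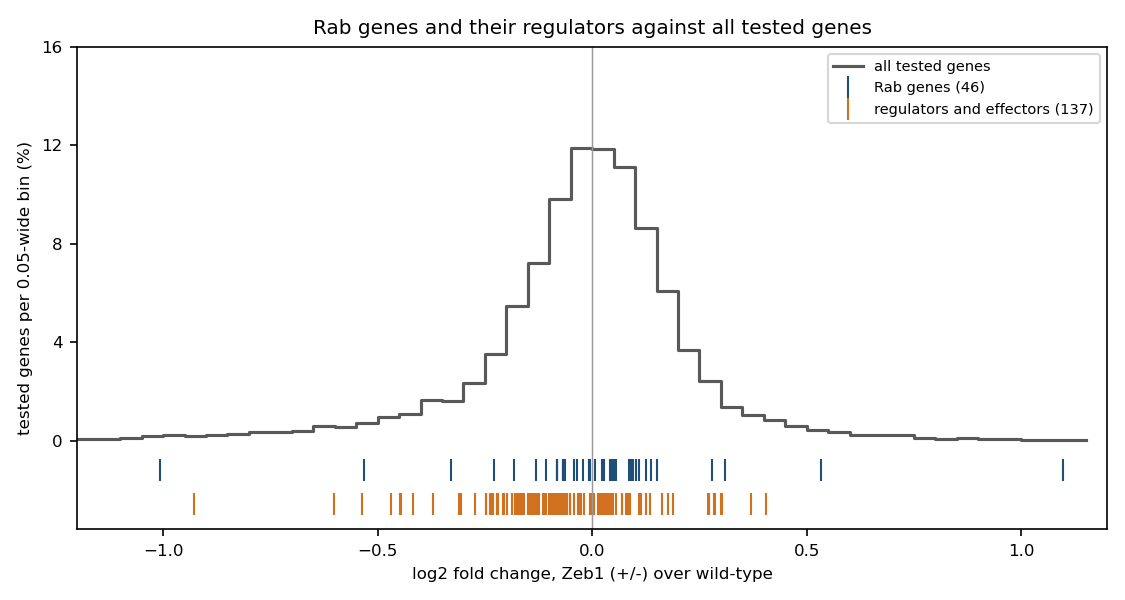
Distribution of log2 fold changes of all 12940 tested genes as a percentage per bin (line), with 1 tick for each of the 46 tested Rab genes and the 137 tested regulators and effectors below it. Most ticks of both sets lie near 0, with medians of 0.023 and -0.064.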

How the data were processed

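The authors deposited 1 table of estimated counts, with genes as rows and the 6 libraries as columns. STAR, RSEM and edgeR on GRCm38 are named in the submitters' processing notes, with no versions or roles. All values were whole, so RSEM's expected counts appear to have been rounded by the authors before deposit. The strand setting, annotation release and filters are not given in the sources used here. Columns were mapped by the identifier in each sample's description, with 0 columns left over.

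Counts were analysed in R 4.3.3 with edgeR 4.0.16: filterByExpr (minimum count 10, minimum total 15), TMM scaling (factors 0.976 to 1.01), and the quasi-likelihood test of genotype over all 6 libraries. Benjamini-Hochberg adjustment ran over the 12940 tested genes, and calls needed an adjusted p under 0.05. The SE is the log2 fold change divided by the root of F, with 95% intervals from the t distribution. Positions, exon lengths and shared 50-base stretches (either strand) came from GENCODE M21 on GRCm38, in which 43 of 59 member identifiers matched with version and all without. Intervals cover spread between libraries and floors counting error only.

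The members, gene lists and alternatives were chosen with earlier results of these data known. Genes given in every library are the 6 highest and 6 lowest fold changes, the 2 highest per kilobase in each role, the smallest p of each regulator list, and Zeb1; Rab8a, Rab10, Rab18, Rab20 and others were named as examples after their values were seen. Alternatives were RLE factors, no filter, at least 1 CPM in 3 libraries, the replicate block, DESeq2 1.42.0, an adjusted p under 0.1, the structural RNA split, the B cell mean, and each library left out. Rab43 summed with Gm45140, and longest-transcript lengths, were added after seeing the data.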

Additional observations from a re-analysis of the deposited data

How the results depend on the processing

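Over 14 alternatives the number of Rab genes past the threshold stayed at 0 higher and 0 lower, except without a low-count filter. That fit called 2 Rab genes higher (Rab27a and Rab44), beside 207 higher and 315 lower of all genes with any count. The number of genes tested in that fit is not given here, so the shares cannot be compared. With 1 library left out the number of Rab genes ran from 0 to 0 in both directions. The median log2 fold change of the Rab genes was 0.041 without a filter. It was -0.017 once the B cell mean, which separates the genotypes, was added. With 1 library left out it ran from 0.003 (without Zeb1 (+/-) replicate 2) to 0.032. Regulators and effectors, 0 higher and 0 lower in the main fit, had 2 higher and 4 lower without a filter, beside the same 207 and 315. By DESeq2 they had 2 higher and 3 lower, beside 109 and 219 of all genes. At an adjusted p under 0.1 they had 1 higher and 2 lower, beside 61 and 153. With 1 library left out they had 0 to 1 in each direction. The 1 was without Zeb1 (+/-) replicate 3, beside 36 and 91 of all genes.

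Of all genes, 20 were higher and 56 lower. There were 207 and 315 without a filter, 109 and 219 by DESeq2, 61 and 153 at an adjusted p under 0.1, 4 and 27 with the structural RNA split, and 3 and 0 with the B cell mean. Leaving out 1 library gave 4 to 36 higher and 1 to 91 lower: 4 and 1 when wild-type replicate 2 was dropped, and 13 and 15, 6 and 5, and 36 and 91 when Zeb1 (+/-) replicates 1, 2 and 3 were dropped in turn. Among 418 values of 30 named genes, 400 kept their call, 16 passed where they had not, and 2 took the opposite sign of a fold change more than 1 SE from 0: Rab1a at -0.007 with the B cell mean and Rabl2 at 0.058 with the structural RNA split. Sign changes numbered 23 in all, the other 21 in genes within 1 SE of 0. The cause of these shifts was not tested.

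With the replicate number as a block 6 genes were higher and 9 lower, and 0 Rab genes passed. Same-numbered libraries correlated at -0.25, -0.035 and -0.174 in their deviations from the group means, and no library correlated best with its own number. Deviations from means of 3 libraries depend on each other, so these values cannot decide whether same-numbered samples are related. Depth limits the rarest Rab genes, for which 1 CPM stood for 17.9 to 42.3 counts.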

Other observations

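The table also holds 7 non-coding rows with Rab-numbered names, which are no members. Rab10os, an antisense transcript that overlaps Rab10, was at 15.4, 16.9 and 15.6 CPM in wild-type and 16.97, 15.92 and 15.96 CPM in Zeb1 (+/-) (log2 fold change 0.028, edgeR adjusted p = 0.895). Reads of the pair cannot be assigned with certainty, since the strand setting of the counting is not given in the sources used here. Rab26os was at 0.355 to 0.579 CPM, above its overlapping gene Rab26, which had 1 to 4 counts in each library. The pseudogene Rab11b-ps2, which shares stretches with Rab11b, had 44 counts in all, against 21992 for Rab11b. Rab11fip4os1 had 14 counts, and Rab11fip4os2, Rab5a-ps and Rab9b-ps1 had 0.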
